A study of Rattus norvegicus with 4 samples.

Results

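Rat lens capsules carrying lens epithelial cells (LECs) were compared between 1 W after extracapsular lens extraction (ECLE), the operation that opens the lens capsule and takes out the lens content, and day 0. The comparison was chosen by array title: 3 of the 4 arrays of the series entered it, the 2 biological replicates at 1 W (replicates 1 and 2) and the single day 0 array. All animals were female albino SD rats, operated on at the age of 7 weeks, with no other treatment named. The day 0 capsules were taken when the operation was over, so both groups had been through surgery, and the 1 W capsules came 1 W later from rats aged 8 weeks. The sources used here do not say how many eyes or rats went onto an array, and the methods state a higher number of samples in a group than there are arrays here. The design has no unoperated or same-age control. The 1 array at 2 W entered the mean level of each probe set and was a group of its own in the statistical model, where it adds no residual degree of freedom, and some of its values are set beside those at 1 W.

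The lens capsule is a thick basement membrane made by the LECs, built mainly of type IV collagen, laminins and the proteoglycan perlecan. LECs left on it after surgery divide, move onto the posterior capsule, and take 1 of several paths. Some become myofibroblast-like cells with contractile filaments that lay down fibronectin and fibrillar collagens, and others begin to form lens fibers. The resulting clouding is posterior capsule opacification (PCO). Because whole capsules were measured, a lower value can come from fewer cells of a type or from less RNA per cell, and these cannot be told apart.

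A probe set is a set of short probes that bind 1 transcript, and its deposited intensity is a linear brightness. Each array was divided by its mean intensity before ratios to day 0 were taken, so a ratio is not the plain quotient of the intensities printed beside it. A total of 14217 genes were represented by their brightest probe set, and 10455 of them, whose mean level was not under the 40th percentile of all probe sets, are called brighter genes. A gene met the fold rule when its ratio was over 2.0 on both 1 W arrays or under 0.5 on both. The LEC genes *Pax6* (4029, 3316 and 3283 at day 0 and on replicates 1 and 2) and *Foxe3* (1471, 1167 and 997) and the crystallin *Cryaa* (7430, 8439 and 8741) were bright on all 3 arrays, so defining genes of the labeled tissue were present. The day 0 array also held RNA of photoreceptors. The summed level of 26 photoreceptor markers, in multiples of the array mean, was 93.5 at day 0, 15.1 on replicate 1 and 44.2 on replicate 2. The fold rule was met downward by 15 of them (57.7%, against 4.15% of all genes). The summed level of 12 pigment cell markers went the other way, at 12.4, 70.6 and 25.8. The 1 W arrays thus differed from each other in markers of both kinds, and the part of such cells in the results below was not tested.

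By the fold rule more genes were higher than lower at 1 W, but this order was not stable. It turned with the intensities as deposited, without division by the array mean (656 higher and 863 lower), with all probe sets counted in place of genes (1818 and 1848) and with replicate 1 alone (1351 and 1440). Over all genes, 807 (5.68%) met the rule upward and 590 (4.15%) downward, and among the brighter genes 340 (3.25%) and 227 (2.17%) did. The brighter genes had a median log2 ratio of -0.01. Among the brighter genes the intensities as deposited gave 256 higher and 390 lower. For all genes the median log2 ratio was -0.02, and it moved to values between -0.21 and 0.10 under other scalings, so the sign of a gene list median that close to 0 depends on the scaling. A gene that was dim at day 0 could be among the brighter genes only through its level on the later arrays, so counts over brighter genes favor such genes. Of the 2614 brighter genes that read 2.57 to 95.1 at day 0, 259 met the rule upward and 22 downward. Of the 2614 that read 476 to 12178, 18 and 94 did. Both 1 W ratios of a gene share its day 0 value, so an error in that value enters both. The percentages of all genes set beside the gene lists below are not matched to day 0 level. The part of day 0 level in the list counts was not tested. No gene went from above the 50th percentile of its array at day 0 to under the 20th on both 1 W arrays, whereas 20 genes went the opposite way, a pattern looked at after values were seen. Among these 20 were the BMP antagonist *Grem1*, the Cdk inhibitors *Cdkn2a* and *Cdkn2b*, the osteoclast inhibitor *Tnfrsf11b*, the protease gene *Ctsk* and the homeobox gene *Msx1*.

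The 2 arrays at 1 W lay within 2-fold of each other for most brighter genes. Their log2 ratios differed by under 1 in 9954 of 10455 brighter genes (95.2%), and the SD of the difference was 0.46. The median size of the mean log2 ratio of brighter genes was 0.30, so this window is loose for a typical gene. For the 3762 dimmer genes the SD was 1.48, so their ratios are the least certain. limma, fitted to 18625 brighter probe sets, called 9 higher (0.0483%) and 0 lower (0%) at 1 W at an adjusted p under 0.05, while at an unadjusted p under 0.05 there were 1530 higher and 1800 lower. The fit had 1 residual degree of freedom, which is the spread between the 1 W arrays, and the lowest adjusted p of any probe set with a lower mean was 0.0828. These p-values measure only the spread between these arrays. The count depended on the settings: 260 probe sets higher and 146 lower were called with arrays divided by their median, 87 and 163 with the intensities as deposited, and 0 and 0 without an intensity trend in the variance.

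**Figure D1:**
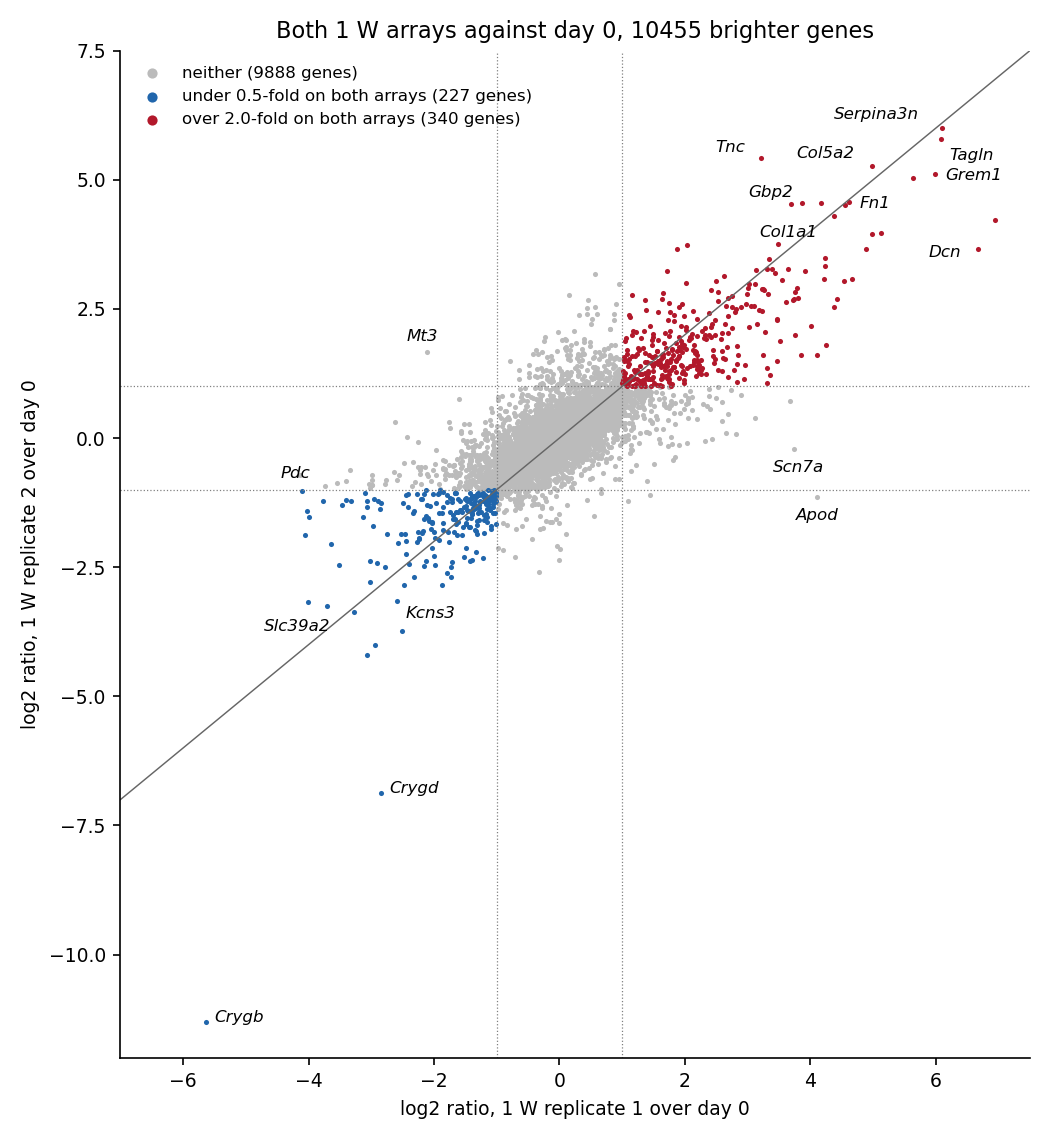
Each point is 1 of 10455 brighter genes, with its log2 ratio to day 0 on 1 W replicate 1 (x axis) and replicate 2 (y axis); red marks 340 genes over 2.0-fold on both arrays, blue 227 genes under 0.5-fold on both, the line marks equal ratios and the dotted lines mark 2.0-fold and 0.5-fold. *Tagln*, *Serpina3n*, *Fn1* and *Col1a1* lie close to the line, *Dcn* and *Tnc* lie off it, and *Apod*, *Scn7a* and *Mt3* were higher on 1 array and lower on the other.

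Of the 9 probe sets called, 7 had a single symbol and belonged to 5 genes, all of which rose. *Tagln*, which binds actin in smooth muscle cells and myofibroblasts, had an intensity of 25.1 at day 0 and 1513 and 1195 on replicates 1 and 2, 67.7-fold and 55.4-fold higher (log2 ratio 5.94, SE 0.19, limma adjusted p = 0.0297). *Fn1*, fibronectin, went from 44.5 to 979 and 915, and its mean ratio was 24.3 (limma adjusted p = 0.0297). The collagen chain genes *Col5a2* (28.9 at day 0, 813 and 960 at 1 W) and *Col1a1* (25.4, 471 and 431) had mean ratios of 34.9 and 20.3 (limma adjusted p = 0.0300 for both). In all 4 genes both 1 W arrays were far above day 0 and close to each other, a pattern that the limma call itself selects for. The second probe sets of *Col5a2* (log2 ratio 4.43) and *Col1a1* (5.0) were called too, with limma adjusted p values of 0.0300 and 0.0452.

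The largest rise among called genes was that of *Serpina3n*, a secreted serine protease inhibitor that is induced in injury and inflammation. It read 13 at day 0, 796 on replicate 1 and 721 on replicate 2, 68.7-fold and 64.4-fold higher (log2 ratio 6.06, SE 0.17, limma adjusted p = 0.0297), and 371 on the 2 W array. Of the 5 called genes, *Serpina3n* and *Col5a2* have a promoter in the RefSeq set used here. The 250 bases before the *Serpina3n* start (chr6:129088142-129088391, plus strand, GRCr8) are shown because they hold a match, in capitals, to TTCNNNGAA, the general form of a STAT binding motif, searched on both strands. The match lay 115 to 123 bases before the start. Such a match was held by 8.19% of all 27457 genes with a promoter there, so it is a description and not a site.
Serpina3n: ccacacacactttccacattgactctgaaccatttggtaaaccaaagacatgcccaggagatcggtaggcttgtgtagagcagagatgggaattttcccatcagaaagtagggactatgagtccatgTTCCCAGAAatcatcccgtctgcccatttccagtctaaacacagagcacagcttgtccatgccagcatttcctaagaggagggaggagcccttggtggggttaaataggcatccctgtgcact

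Below the limma threshold, genes were ranked by the ratio on the array nearer to day 0. Only brighter genes whose 1 W arrays differed by under 1 log2 unit were ranked. Close replicates and a shared direction thus come from the choice of genes. *Grem1*, which binds and blocks BMPs, read 3.47 at day 0 and 197 and 104 at 1 W, a mean ratio of 47.1 (limma adjusted p = 0.0832). *Tnfrsf11b*, the decoy receptor osteoprotegerin, read 3.13, 139 and 88.2, a mean ratio of 40.4 (limma adjusted p = 0.0828). *Cdh6*, a cadherin of cell to cell contacts, read 4.43, 71.1 and 88.8. In all 3 the day 0 value was among the dimmest on the array and both 1 W values were above the array median. The size of the ratio therefore rests on a dim day 0 value.

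The 10 lowest genes by the same ranking encoded transporters, channels, enzymes and other secreted or membrane proteins. *Slc38a4*, an amino acid transporter, read 393 at day 0 and 36 and 32.5 at 1 W, 0.103-fold and 0.0964-fold (limma adjusted p = 0.0924). *Slc39a2*, a zinc importer, read 541, 36.7 and 48.6. *Kcns3*, a potassium channel subunit, read 725, 108 and 70.1. In all 3 both 1 W values were far below day 0, which the ranking selects for. *Sost*, which encodes the secreted WNT inhibitor sclerostin, read 237, 30.8 and 36.1, and *Sostdc1*, a related inhibitor of BMP and WNT signals that was picked after its values were seen, read 777, 155 and 120. *Atrnl1*, an attractin-like membrane protein, had the closest pair of 1 W values among the 10, at 181 and 171 against 1071 (log2 ratio -2.41, SE 0.16, limma adjusted p = 0.0828). *Nat8f3*, *Crtac1*, *Cpz*, *Grin2a* and *Capn6* made up the rest, with mean ratios between 0.0831 and 0.158.

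**Figure D2:**
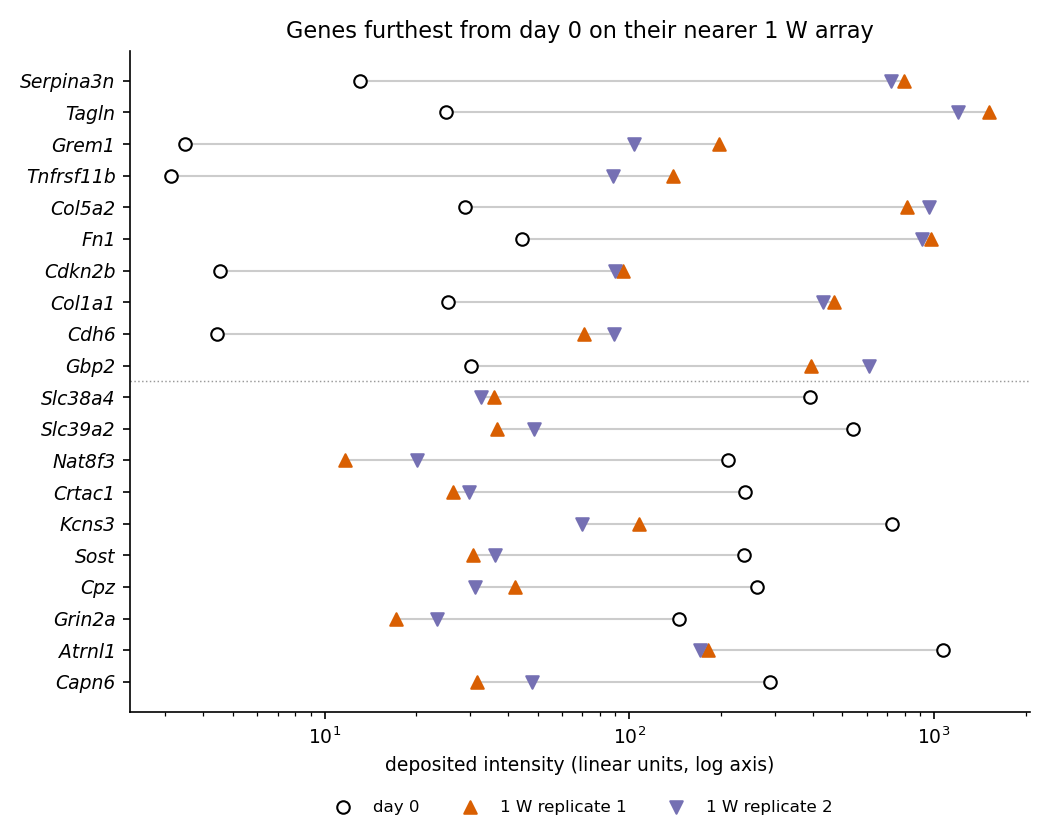
Deposited intensity (x axis, log scale) at day 0 (open circles), on 1 W replicate 1 (upward triangles) and on replicate 2 (downward triangles) for the 10 brighter genes with the highest and the 10 with the lowest ratio on the nearer array. The genes were chosen for triangles that lie close together and apart from the day 0 circle, so this look is no separate result. At the top, 4 of the genes (*Grem1*, *Tnfrsf11b*, *Cdkn2b* and *Cdh6*) read under 5 at day 0.

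Transporters and potassium channels were then counted as families, after these values had been seen. Of 189 brighter genes whose symbol starts with Slc, the solute carriers, 14 were under 0.5-fold and 2 over 2.0-fold on both arrays, beside 2.17% and 3.25% of all brighter genes, and their median log2 ratio was -0.16. They included the amino acid transporters *Slc7a8* (2957, 645 and 578) and *Slc38a2* (3606, 1270 and 904), the inositol transporter *Slc5a3* (2151, 323 and 454) and the sodium, potassium and chloride cotransporter *Slc12a2* (1561, 659 and 635). In each of them both 1 W values were below day 0 by more than they differed from each other. The 2 higher ones were *Slc43a2* (9.87, 65.4 and 49.4) and *Slc1a5* (50.8, 206 and 124), both carriers of neutral amino acids. Of 30 brighter Kcn genes, which encode potassium channel subunits, 5 were under and 0 over, with a median log2 ratio of -0.44.

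The question of how far the capsule had taken on a fibrotic program was addressed with gene lists. Of 25 contractile genes, 12 were over 2.0-fold and 0 under on both arrays (5.68% and 4.15% of all genes), and the list median was 1.68. *Csrp1*, a LIM domain protein of smooth muscle, read 207, 935 and 667. *Tagln2*, a relative of *Tagln*, read 466, 1512 and 1446. *Acta2*, smooth muscle actin and the usual marker of myofibroblasts, read 187, 328 and 284, or 1.98-fold and 1.77-fold, and did not meet the fold rule. *Tpm1* (798, 1180 and 1298) did not either, and its 7 probe sets pointed both ways, with log2 ratios between -0.66 and 1.07.

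The contractile genes fell into those alike on both arrays and those mainly high on replicate 1. Replicate 1 was higher than replicate 2 for 22 of the 25. *Mylk*, the kinase of myosin light chain, read 58.8 at day 0, 996 on replicate 1 and 176 on replicate 2. *Actg2*, enteric smooth muscle actin, read 12.5, 193 and 32.9, and *Des*, the muscle filament desmin, 23.8, 209 and 52.5. *Myh11*, the smooth muscle myosin heavy chain, read 57.1, 649 and 81.1, so that on replicate 2 it was 1.65-fold and missed the rule. *Tpm2* (48.8, 481 and 118) followed the same pattern, and its second, dimmer probe set was lower than day 0 on both arrays. Pigment cell markers were also higher on replicate 1 for 11 of 12, among them *Mlana* (51.0, 733 and 196) and *Dct* (455, 5446 and 1553), and the part of adjacent tissue in these contractile genes was not tested. *Tagln*, *Tagln2* and *Csrp1* differed between the arrays by at most 0.44 log2 units.

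Some collagen genes were higher on both arrays. A list of 17 took in fibrillar and fibril-associated collagens and also chains of collagens VI and VIII. Of the 17, 7 were over on both arrays (41.2%, against 5.68% of all genes). The 1 under 0.5-fold on both was the collagen VIII gene *Col8a1* (5.88%, near the 4.15% of all genes). The list median was 0.37. Besides *Col5a2* and *Col1a1* the higher ones were *Col3a1* (52.8, 875 and 383), *Col6a1* (5.6, 147 and 60.7), *Col6a3* (42.8, 466 and 227), *Col12a1* (31.9, 137 and 69.8) and *Col14a1* (8.61, 15.9 and 17.7), which is not a brighter gene. *Col1a2*, whose product joins that of *Col1a1* in type I collagen, was chosen after its values were seen. It read 1768 at day 0 and 1727 and 1188 at 1 W, ratios of 1.1 and 0.782, and its second probe set gave log2 ratios of 0.17 and -0.14. Day 0 thus lay between the scaled 1 W values of *Col1a2* and far below both of *Col1a1*, and the difference between the chains was not tested.

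The main collagen IV chains, perlecan and a laminin chain of the capsule's own basement membrane were lower on both arrays. Of 21 basement membrane genes these 4 were under 0.5-fold (19.0%, against 4.15% of all genes), 1 was over, and 14 were below 0 on both, with a median log2 ratio of -0.47. *Col4a1* (11277, 4796 and 4323) and *Col4a2* (4687, 1597 and 1508), the main chains of type IV collagen, were 0.462-fold and 0.379-fold on average. *Hspg2*, perlecan, read 2432, 669 and 703, and *Lama5*, a laminin chain, 959, 279 and 268. In each of these 4 genes the replicates were close to each other and far below day 0, and limma gave adjusted p values of 0.101, 0.0828, 0.0828 and 0.0924. Dimmer probe sets of *Lama5* were lower without meeting the rule (log2 ratios -0.53 and -0.47 for 1, -1.59 and -0.45 for another). *Lama4*, a laminin chain of vessels and muscle, was the 1 higher member (32.1, 93.0 and 75). A dimmer probe set of *Lama4* went both ways (1.61 and -1.13). *Sparc*, a collagen-binding protein abundant in the capsule, read 10231, 6363 and 6560 and did not meet the rule. *Col8a1*, a short-chain collagen (924, 304 and 240), and *Loxl2*, a collagen cross-linking enzyme (392, 149 and 160), were lower as well.

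Of 25 matricellular and adhesive proteins 9 were over and 0 under (36% and 0%, against 5.68% and 4.15% of all genes), with a median log2 ratio of 0.96. *Tgfbi*, an adhesion protein induced by TGF beta, read 32.6 at day 0, 292 on replicate 1 and 194 on replicate 2. *Postn*, periostin, read 528, 1514 and 1862, and *Tnc*, tenascin C, 14.7, 122 and 545. *Tnc* was far higher on replicate 2 than on replicate 1, unlike *Tgfbi* and *Postn*. Of 9 small leucine-rich proteoglycans, which bind collagen fibrils, 4 were over (44.4%, against 5.68% of all genes). The very dim *Chad* was the 1 under (11.1%, against 4.15%). *Dcn*, decorin, read 46.5, 4238 and 506, ratios of 102 and 12.7, so both arrays were above day 0 while they lay 3.01 log2 units apart (limma adjusted p = 0.197). *Bgn*, biglycan (48.2, 1096 and 352), and *Lum*, lumican (468, 2276 and 1309), were nearer to each other.

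Proteases and their inhibitors were higher in part. Of 26 matrix proteases 8 were over (30.8%, against 5.68% of all genes) and 1 under (3.85%, near the 4.15% of all genes). *Mmp2*, a gelatinase, read 31.1, 180 and 176 (limma adjusted p = 0.0828), although its second, dimmer probe set did not follow. *Plau*, urokinase (23.1, 128 and 175), and its receptor gene *Plaur* (3.41, 30.0 and 33.8) were both higher. The second, dimmer probe set of *Plaur* went both ways (log2 ratios 3.16 and -0.72). Several of the proteases that were over, *Mmp9* and *Plaur* among them, are not brighter genes, so their ratios are less certain. Of 19 protease inhibitors 5 were over, among them *Slpi* (18.1, 131 and 68.8), and 0 under (26.3% and 0%, against 5.68% and 4.15% of all genes).

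Genes of immune cells formed the list with the highest median. Of 27 macrophage markers 21 were over 2.0-fold on both arrays and 0 under (77.8% and 0%, against 5.68% and 4.15% of all genes). The median log2 ratio was 2.18. *Cybb*, a subunit of the phagocyte oxidase, read 28.8, 321 and 241, *Lyz2*, a lysozyme, 235, 2005 and 1472, and *Aif1*, a cytoskeletal protein of macrophages, 20.01, 155 and 136. A second probe set of *Aif1* did not follow, with log2 ratios of 0.19 and -1.62. The summed level of the 27 markers was 26.3 array means at day 0 and 72.2 and 57.3 at 1 W. The lowest member at day 0 read 4.03, and whether such dim members were above background is unknown. *Cd163* (8.85, 10.9 and 7.86), a scavenger receptor of some resident macrophages, was not higher on both arrays by the rule. Neither was *Adgre1* (22.1, 67.0 and 29.7). Of 21 genes of MHC class II and antigen processing 10 were over (47.6%, against 5.68% of all genes) and 0 under. They included *RT1-Bb* (25.3, 198 and 207), a class II chain, and *Cd74* (119, 1438 and 724), the invariant chain. The summed level of markers of neutrophils, mast cells and lymphoid cells was 1.26 array means at day 0 against 1.67 and 1.24. Of these 25 markers 4 were over (16%, against 5.68% of all genes) and 1 under (4%, near the 4.15% of all genes). Only 2 of the 25 were among the brighter genes.

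Inflammatory mediators were higher on both arrays in 11 of 33 cases (33.3%, against 5.68% of all genes) and lower in 2 (6.06%, near the 4.15% of all genes). *Ptgs2*, the inducible cyclooxygenase of prostaglandin synthesis, read 17.0, 153 and 162 (limma adjusted p = 0.0828). *Nos2*, the inducible nitric oxide synthase, read 96.6, 6.19 and 31.1 and was lower, by unlike amounts (log2 ratios -3.80 and -1.42). It is not a brighter gene and was not tested by limma. Of 45 chemokines, cytokines and receptors 9 were over (20%, against 5.68% of all genes) and 2 under (4.44%, near the 4.15% of all genes). *Ccl2*, which attracts monocytes, read 62.2, 227 and 713, and *Ccl6* 4.92, 82.4 and 42.4. Of 18 complement genes 5 were over (27.8%), with *C1qa*, *C1qb* and *C3* having the highest ratios, and 1 was under (5.56%, near the 4.15% of all genes). Some genes count in several lists, so the counts are not independent. *C1qa*, *C1qb* and *C1qc* are also macrophage markers, and *Ctss* is in the macrophage, MHC class II and lysosomal lists.

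Interferon-induced genes were higher on both arrays in 7 of 27 cases and lower in 0 (25.9% and 0%, against 5.68% and 4.15% of all genes). Their median was 1.28 on replicate 1 and 0.43 on replicate 2. *Gbp2*, a guanylate-binding protein, read 30.2, 395 and 610, a mean ratio of 18.6 (limma adjusted p = 0.0828). *Ifitm1* (110, 810 and 554) and *Ifitm3* (879, 2571 and 2120), which block virus entry, *Irgm* (49.9, 153 and 107), an immunity GTPase, and *Mx1* (29.6, 97.5 and 74.2), an antiviral GTPase, were also above day 0 on both arrays. Other members of the list were at day 0 level on both arrays, as *Ifit1* (15.7, 12.3 and 14.9), or on replicate 2 only, as *Isg15* (74.2, 178 and 68.4). *Oas1b*, a dim antiviral synthetase gene, read 1.25, 38.0 and 8.36.

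Promoters of interferon-induced genes are shown because the list shares a motif there. The interferon-stimulated response element was searched as a pair of GAAA units spaced by 2 bases, on both strands, in the 250 bases before the start. The list has 21 genes with a RefSeq promoter here, and 15 held it, against 3.61% of all 27457 genes. It was held by 4 of 6 members over 2.0-fold on both arrays and by 11 of 15 other members, a difference that was not tested. Among brighter genes with a promoter it was in 20 of 252 that were over, in 2 of 181 that were under and in 2.71% of all. A match is a description of the letters and not a site or a cause. The 4 members that were over and held it follow, from RefSeq GRCr8, 5' to 3' on the gene's strand with the motif or its complement in capitals: *Gbp2* (chr2:234005477-234005726, plus strand), *Ifitm3* (chr1:205541759-205542008, minus strand), *Irgm* (chr10:33742579-33742828, minus strand) and *Oas1b* (chr12:41395853-41396102, minus strand). In *Gbp2* the match was on the opposite strand, 22 to 31 bases before the start, in *Ifitm3* it was at 35 to 44 bases, in *Irgm* at 25 to 34 bases, and *Oas1b* had 2 overlapping matches between 44 and 59 bases.
Gbp2: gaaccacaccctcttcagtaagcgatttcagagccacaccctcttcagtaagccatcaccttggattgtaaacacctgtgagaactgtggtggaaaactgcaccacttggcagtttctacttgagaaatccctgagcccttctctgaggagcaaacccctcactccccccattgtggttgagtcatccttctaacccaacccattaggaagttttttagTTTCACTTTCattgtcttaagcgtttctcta
Ifitm3: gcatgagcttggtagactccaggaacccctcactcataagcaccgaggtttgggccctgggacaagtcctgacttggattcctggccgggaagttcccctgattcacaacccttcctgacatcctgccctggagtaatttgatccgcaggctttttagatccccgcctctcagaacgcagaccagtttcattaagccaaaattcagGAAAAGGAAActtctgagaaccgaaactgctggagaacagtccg
Irgm: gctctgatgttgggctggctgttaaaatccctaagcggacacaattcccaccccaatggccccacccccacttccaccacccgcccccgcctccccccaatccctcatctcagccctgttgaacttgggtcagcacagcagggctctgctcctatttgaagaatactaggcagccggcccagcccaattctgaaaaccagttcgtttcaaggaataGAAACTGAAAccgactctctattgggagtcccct
Oas1b: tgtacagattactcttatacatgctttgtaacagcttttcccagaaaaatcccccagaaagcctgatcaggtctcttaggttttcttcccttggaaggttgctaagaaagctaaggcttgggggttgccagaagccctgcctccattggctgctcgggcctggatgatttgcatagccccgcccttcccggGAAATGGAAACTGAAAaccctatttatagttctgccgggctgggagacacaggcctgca

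The CArG box, the motif of serum response factor, was searched by the same method in the contractile list. Of 21 members with a promoter here 2 held it, *Acta1* and *Cnn2*, against 1.62% of all genes, and *Tagln* has no entry there. *Acta1*, skeletal muscle actin, was the holder that met the fold rule (20.6, 72.2 and 59.96). The 250 bases before its start (chr19:68784195-68784444, minus strand, GRCr8) are given with the CArG box in capitals, 85 to 94 bases before the start. Each other member with a promoter had no CArG box within this window, which says nothing of regions outside it.
Acta1: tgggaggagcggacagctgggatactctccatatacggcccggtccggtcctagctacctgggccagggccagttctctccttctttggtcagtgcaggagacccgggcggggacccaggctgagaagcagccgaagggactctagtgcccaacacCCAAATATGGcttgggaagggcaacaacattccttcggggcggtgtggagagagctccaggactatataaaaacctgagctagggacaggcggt

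Genes of DNA replication and mitosis stayed near day 0 level, while the genes of the Cdk inhibitors p15, p16 and p21, which hold back entry into DNA synthesis, were higher on both arrays. Of 24 DNA replication genes 0 met the fold rule in either direction, with a median log2 ratio of 0.15. Of 27 mitosis genes 1, the dim *Plk1* (4.38, 32.5 and 21.2), was over (3.70%, near the 5.68% of all genes), with a median of 0.00. *Pcna* (1167, 1240 and 1103), the sliding clamp of DNA polymerase, and *Mki67* (197, 156 and 138), a marker of cycling cells, had mean log2 ratios of 0.20 and -0.23. A list of 24 cyclins, Cdks, Cdk inhibitors and other regulators of the G1 phase had 6 genes over, *Cdkn2a*, *Cdkn2b*, *Cdkn1a*, *Ccnd1*, *Myc* and *Mycn*, and 1 under, *Ccnd2* (25%, against 5.68% of all genes, and 4.17% against 4.15%). *Cdkn2b*, the Cdk4 and Cdk6 inhibitor p15, read 4.54, 95.5 and 89.6, a mean ratio of 23.3 (limma adjusted p = 0.0828). *Cdkn2a*, its neighbor gene for p16 and ARF, read 0.823, 64.7 and 91.7 and is not among the brighter genes. *Cdkn1a*, p21, read 49.1, 101 and 126, or 2.30-fold and 2.99-fold. The other inhibitor genes *Cdkn1b* (1450, 998 and 1023), *Cdkn1c* (4900, 5629 and 5055), *Cdkn2c* (349, 231 and 226) and *Cdkn2d* (189, 216 and 177) did not meet the rule. The cyclin D genes, which activate Cdk4 and Cdk6, differed in direction. *Ccnd3* (532, 870 and 696) was above day 0 on both arrays without meeting the rule. *Ccnd1* read 393, 1005 and 924, with its other probe sets at log2 ratios of 0.94 and 1.04, and *Ccnd2* read 1276, 277 and 358.

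**Figure D3:**
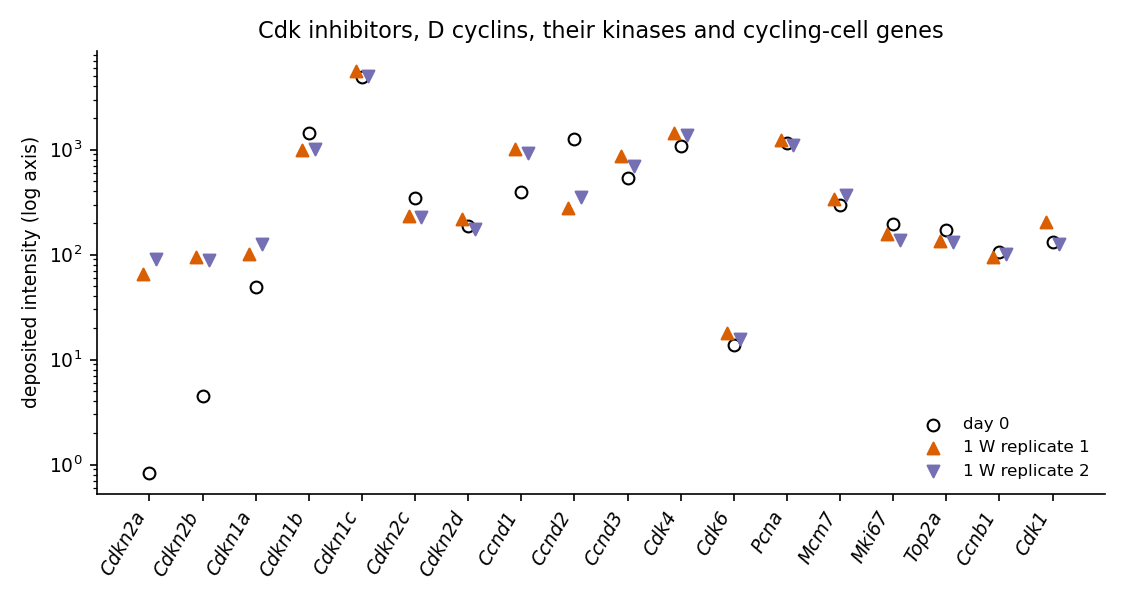
Deposited intensity (y axis, log scale) of Cdk inhibitor genes, D cyclins, their kinases and genes of cycling cells at day 0 (open circles) and on 1 W replicates 1 and 2 (triangles). *Cdkn2a*, *Cdkn2b*, *Cdkn1a* and *Ccnd1* lie above and *Ccnd2* below their day 0 circles on both arrays, while *Pcna*, *Mcm7*, *Mki67*, *Top2a* and *Ccnb1* overlap theirs or lie near them.

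Signaling genes met the rule as single members. Of 19 BMP genes 4 were over (21.1%, against 5.68% of all genes) and 1 under (5.26%, near the 4.15% of all genes). Of the 4, *Grem1* was the highest and the only brighter gene, and *Bmp3* and *Gdf10* read 2.37 and 2.42 at day 0. *Bambi*, a pseudoreceptor that dampens TGF beta and BMP signals, read 696, 171 and 174 (0.284-fold, limma adjusted p = 0.0924). In the WNT list 5 of 29 were over (17.2%) and 1 under (3.45%). *Sfrp2*, a secreted WNT binding protein, read 32.1, 272 and 205, with its second probe set higher as well, *Tcf7* read 96.0, 290 and 446, and *Lef1* read 31.2, 86.3 and 81.2, the last pair being transcription factors of the pathway. The TGF beta and activin list had a median of 0.00, with 2 of 25 over (8%, near the 5.68% of all genes), 1 of them the activin binder *Fst* (19.6, 39.4 and 37.0). *Hey2*, a Notch target (686, 280 and 262), was the 1 of 21 Notch genes to meet the rule (4.76%, near the 4.15% of all genes).

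Of 33 growth factor and receptor genes 3 were over (9.09%) and 2 under (6.06%), near the 5.68% and 4.15% of all genes. *Igf1* read 64.4, 1194 and 322 and its binding protein gene *Igfbp2* 650, 2553 and 1557, whereas the receptor gene *Igf1r* read 1151, 441 and 456. *Pdgfra*, a PDGF receptor gene, was lower (2482, 960 and 598), and *Met*, the receptor of hepatocyte growth factor, was higher from a dim start (15.2, 42.7 and 34.3). Of 22 FGF and ERK feedback genes 2 were over (9.09%, against 5.68% of all genes) and 0 under, with a median log2 ratio of 0.09. On both arrays 9 of the 22 were above 0 and 7 below. The 2 over were the dim *Fgf7* and *Dusp6*, a phosphatase induced by ERK signaling, which read 178, 408 and 478. Of 18 transcription factors of epithelial-mesenchymal transition (EMT) and mesenchymal markers 4 were over (22.2%) and 1, *Pdgfra*, was under (5.56%, near the 4.15% of all genes). The list median was 0.19, with 10 members above 0 on both arrays and 5 below. *Snai1*, *Zeb1*, *Zeb2*, *Vim* and *Cdh2* did not meet the rule, with mean log2 ratios between -0.33 and 0.20. Among transcription factor genes *Runx1* was the highest brighter member of the list (19.9, 198 and 231, limma adjusted p = 0.0828), and both its probe sets were higher. *Cdh11*, a mesenchymal cadherin, read 185, 859 and 630. A dimmer probe set of it was higher too (log2 ratios 1.66 and 2.16), while another did not follow (-0.23 and 0.68).

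Most lens identity genes did not meet the fold rule. Of 19 lens epithelium markers 0 were over and 1 was under (5.26%, near the 4.15% of all genes), *Cdh1*, the epithelial cadherin, at 6852, 3008 and 2485. On both arrays 11 of the 19 were below day 0 and 4 above. *Aqp1* (log2 ratios -0.90 and -1.64) and *Six3* (-1.36 and -0.61) were lower without meeting the rule. *Sox2* (1248, 558 and 494) lay at the edge of it, with 0.502-fold and 0.460-fold. The crystallin list had a median log2 ratio of 0.19, and 11 of 16 members were above 0 on both arrays. Its 3 members under 0.5-fold (18.8%, against 4.15% of all genes) were gamma crystallins of fiber cells. They were *Crygb* (2232, 39.8 and 0.760), *Crygc* (2938, 342 and 156) and *Crygd* (5502, 681 and 40.2). Other gamma family members, *Cryga* (12.8, 19.2 and 20.7), *Crygn* (4088, 5740 and 3792) and *Crygs* (11087, 11007 and 9714), did not meet the rule. Of the 3, *Crygc* had the closest replicates, and *Crygb* had the largest difference between the 1 W arrays of any brighter gene. On the 2 W array they read 2781, 7103 and 7327. Of 19 lens fiber membrane and filament genes 2, *Bfsp1* and *Fabp5*, were under (10.5%, against 4.15% of all genes) and 0 over. That list had a median log2 ratio of -0.01, with 6 members above 0 on both arrays and 5 below. *Bfsp1*, the fiber filament gene filensin, read 790, 213 and 121 at day 0 and 1 W and 4987 at 2 W. *Mip*, the fiber water channel, read 941, 2976 and 1139 at day 0 and 1 W.

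Housekeeping lists had medians near 0 or of modest size. Of 29 cytosolic ribosomal protein genes 28 were above 0 on both arrays, with a median log2 ratio of 0.55. The rule was met upward by 2 of them (6.90%, near the 5.68% of all genes). Of 41 respiratory chain subunits 34 were above 0 on both, with a median of 0.31 and 0 past the rule. Glycolysis, cholesterol synthesis and keratin genes had medians of 0.04, -0.01 and -0.10 and 0 members past the rule. Lysosomal genes had a median of -0.28, and 2 of 25 were over (8%, near the 5.68% of all genes). These were the cathepsin genes *Ctsk* (4.20, 130 and 56.4) and *Ctss* (106, 503 and 351). *S100a6* (724, 2823 and 3447) and *Anxa2* (1317, 3613 and 3285), calcium-binding partners at membranes, were higher on both arrays with limma adjusted p = 0.0828 for each.

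**Figure D4:**
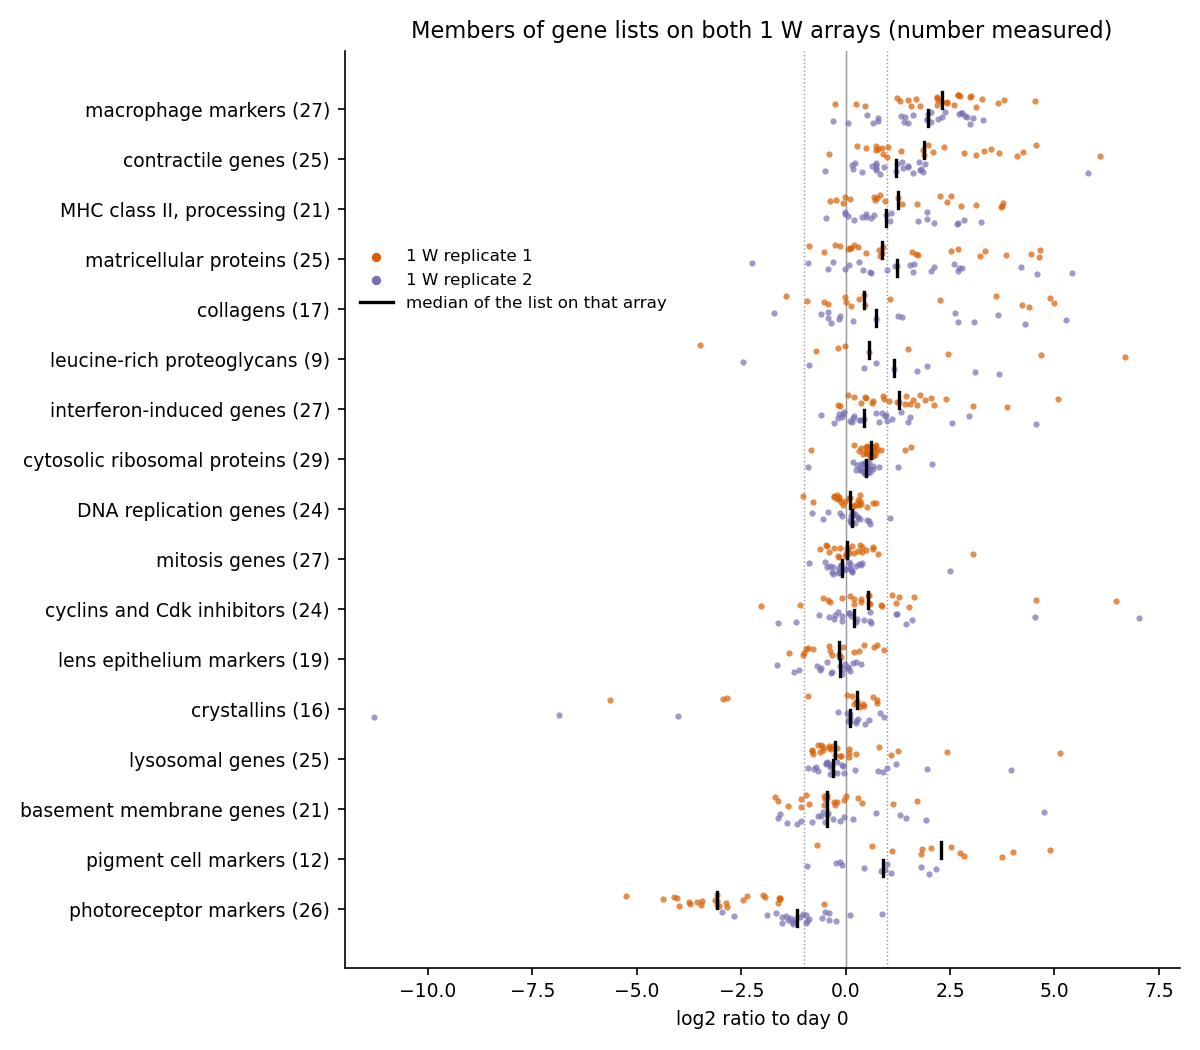
Log2 ratio to day 0 (x axis) of every measured member of 17 gene lists (rows, with the number of members) on 1 W replicate 1 (upper dots) and replicate 2 (lower dots), with black bars at the list's median on that array. Macrophage and contractile medians lie above 1 on both arrays and the photoreceptor median below -1 on both, with the photoreceptor and pigment cell medians further apart between the arrays than the others.

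The 5 brighter genes that differed most between the 1 W arrays in each direction are given by array. *Pdc* (1811, 93.6 and 766) and *Gngt1* (1501, 101 and 676), both of photoreceptors, *Slc17a7* (112, 5.67 and 58.5), a vesicular glutamate transporter of neurons, *Mt3* (41.6, 8.61 and 114), a neural metallothionein, and *Crabp1* (49.9, 7.20 and 53.3), a retinoid-binding protein, were higher on replicate 2. *Apod* (8.79, 134 and 3.43), a lipid-binding apolipoprotein, *Scn7a* (20.2, 240 and 15.0), a sodium channel gene, *Dcn*, *Crygb* and *Crygd* were higher on replicate 1. In 4 of these 10 genes, *Mt3*, *Crabp1*, *Apod* and *Scn7a*, the arrays lay on opposite sides of day 0. Replicate 1 exceeded replicate 2 by over 1 log2 unit in 187 brighter genes, and the reverse held in 314.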

How the data were processed

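RNA was measured on 4 rat arrays. The authors labeled it, scanned the arrays and deposited linear intensities of 31099 probe sets, made with Affymetrix Expression Console per the submitters' processing notes. The sources used here do not give the summary algorithm, a scaling target or detection calls, so the intensity below which a probe set is at background is unknown.

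From the deposited intensities, 57 control probe sets were left out, each array was divided by its mean, 1 of the divisors the methods name beside specific control values, and log2 was taken. A filter at the 40th percentile of the mean log2 value left 18625 probe sets. These were fitted in R 4.3.3 by limma 3.58.1, using lmFit, then eBayes with trend, for 3 groups, with two-sided p-values adjusted by Benjamini-Hochberg and a threshold of 0.05. limma and the fold rule were tested on simulated data. Other steps used Python 3.11.15, numpy 2.4.6, pandas 2.3.3 and matplotlib 3.10.9. Of 31042 probe sets, 20826 had 1 symbol in the platform annotation, 436 several and 9780 none. A gene is its probe set with the highest mean log2 level. Promoters are from RefSeq (GRCr8).

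The comparison, the 55 gene lists and the rule for named genes were chosen with earlier results of these data known. The rule takes the genes called by limma (at most 10 in each direction), the 10 highest and 10 lowest brighter genes by the ratio on the nearer array whose arrays differ by under 1 log2 unit, up to 3 members per list and direction past the fold rule (2 brightest where none is), the genes *Dcn*, *Tgfbi*, *Tpm2*, *Tpm1*, *Acta2* and *Fn1*, and the 5 brighter genes with the largest difference between the 1 W arrays in each direction. Chosen outside it, after their values were seen, were *Actg2*, *Adgre1*, *Aqp1*, *C1qc*, *Ccnb1*, *Cd163*, *Cdh2*, *Cdkn1a*, *Cdkn1b*, *Cdkn1c*, *Cdkn2c*, *Cdkn2d*, *Cnn2*, *Col12a1*, *Col14a1*, *Col1a2*, *Col4a1*, *Col6a3*, *Ccnd3*, *Cryaa*, *Cryga*, *Crygn*, *Crygs*, *Des*, *Foxe3*, *Ifit1*, *Ifitm3*, *Irgm*, *Isg15*, *Lef1*, *Lyz2*, *Mip*, *Mki67*, *Mx1*, *Mycn*, *Myh11*, *Mylk*, *Pax6*, *Plau*, *Postn*, *Six3*, *Slc1a5*, *Slc38a2*, *Slc43a2*, *Slc7a8*, *Snai1*, *Sostdc1*, *Sox2*, *Sparc*, *Tcf7*, *Top2a*, *Vim*, *Zeb1* and *Zeb2*. Alternatives were other scalings, filters, a floor on low values, the variance prior, the probe sets taken, the arrays in the fit and each 1 W replicate left out.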

Additional observations from a re-analysis of the deposited data

How the results depend on the processing

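limma called 260 probe sets higher and 146 lower with array median scaling, 87 and 163 with intensities as deposited, and 0 higher without an intensity trend, where the adjusted p of the 5 called genes was 0.295. These 5 genes passed the threshold under the other 9 settings run. With 807 genes over and 590 under 2.0-fold and 0.5-fold in the report, a floor at the 20th percentile gave 461 and 347, all probe sets in place of genes 1818 and 1848, a linear mean of both arrays 1426 and 991, and leaving out a 1 W replicate 1351 to 1372 and 1066 to 1440. For brighter genes, 340 over and 227 under, all probe sets gave 513 and 480, a linear mean 560 and 357, leaving out a 1 W replicate 553 to 554 and 325 to 534, and intensities as deposited 390 under. The number of gene lists with a median past 2-fold on both arrays, 3 in the report, was 6 with array median scaling, 5 with 75th percentile scaling and 6 to 7 without a 1 W replicate, each time with the macrophage, contractile and photoreceptor lists among them, but 2, with 1 of these 3 lost, with intensities as deposited, with the floor and with the probe set of the highest day 0 value. The dim *Fgf7* turned to a log2 ratio of -0.0457 under the floor. The cause was not tested for these differences, apart from rules that use 1 array or a mean being easier to meet by construction. limma was not run with a 1 W replicate left out, since no residual degree of freedom remains. No paired analysis was possible because day 0 and 2 W have 1 array each and share no 2 replicate numbers with 1 W. With 1 day 0 array, its own spread is unmeasured, and intensities of dim probe sets limit the size of the highest ratios.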
